A study of Mus musculus with 8 samples.

Results

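The 9 retinoid metabolism genes examined here were *Rbp4*, *Stra6*, *Rdh10*, *Retsat*, *Aldh1a1*, *Aldh1a7*, *Aldh1a3*, *Aldh1a2* and *Crabp1*, chosen by symbol from the 38258 genes of the sequencing table of inguinal white adipose tissue (ING WAT). Whole ING WAT depots came from C57BL/6j mice, 4 killed at weaning on postnatal day 21 (PN21; m1, m49, m138 and m145) and 4 in young adulthood on postnatal day 98 (PN98; m35, m106, m114 and m125). The labels name no deletion, transgene or agent for any mouse, and the mice of the study fasted before section. The PN98 mice of the study ate a maintenance diet or a western style diet in the weeks before section, and the sources used here state neither which diet the 4 PN98 mice ate nor whether the 4 PN21 mice were male. The Y-linked gene *Ddx3y* was read in all 8 mice, at 18.1 to 22.1 FPKM at PN21 and 19.9 to 25.9 at PN98, while *Xist*, the RNA of the inactive X chromosome, lay at 0.247 to 0.832 and at 0 to 0.00704. Levels are given as FPKM, fragments scaled by transcript length and by the mapped fragments of the library, summed over the transcripts of a gene. Differences between ages are PN98 minus PN21 on the log2(FPKM + 1) scale, tested with limma for the 15991 genes whose mean over the mice reached 1 FPKM.

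Adipose tissue is the main store of vitamin A outside the liver. Retinol travels in blood bound to retinol binding protein, is stored in fat cells as retinyl ester, and is oxidised to retinal by retinol dehydrogenases. Retinal is then oxidised to retinoic acid by the retinal dehydrogenases of the *Aldh1a* family. Retinoic acid is a ligand of nuclear receptors, and in fat it is known to act on adipocyte differentiation and on the thermogenic genes of brown and beige adipocytes.

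Of the 9 genes, 7 passed the filter on low values, and 1 of these 7, *Aldh1a1*, was called at an adjusted p under 0.05 (limma, Benjamini-Hochberg over all genes tested). Among all genes, 880 (5.5% of those tested) were called, 387 (2.42%) with a higher and 493 (3.08%) with a lower level at PN98. The 4 mice of each age did not overlap for 3 of the 7 genes, *Aldh1a1*, *Aldh1a7* and *Rbp4*, all higher at PN98, against 977 genes (6.11%) higher and 1612 (10.1%) lower without overlap among all genes tested (16.2% in both directions). The median log2 fold change of the 7 genes was 0.79 and that of all genes tested was −0.21. *Stra6* and *Crabp1* stayed under the filter and are given by their levels only.

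**Figure D1:**
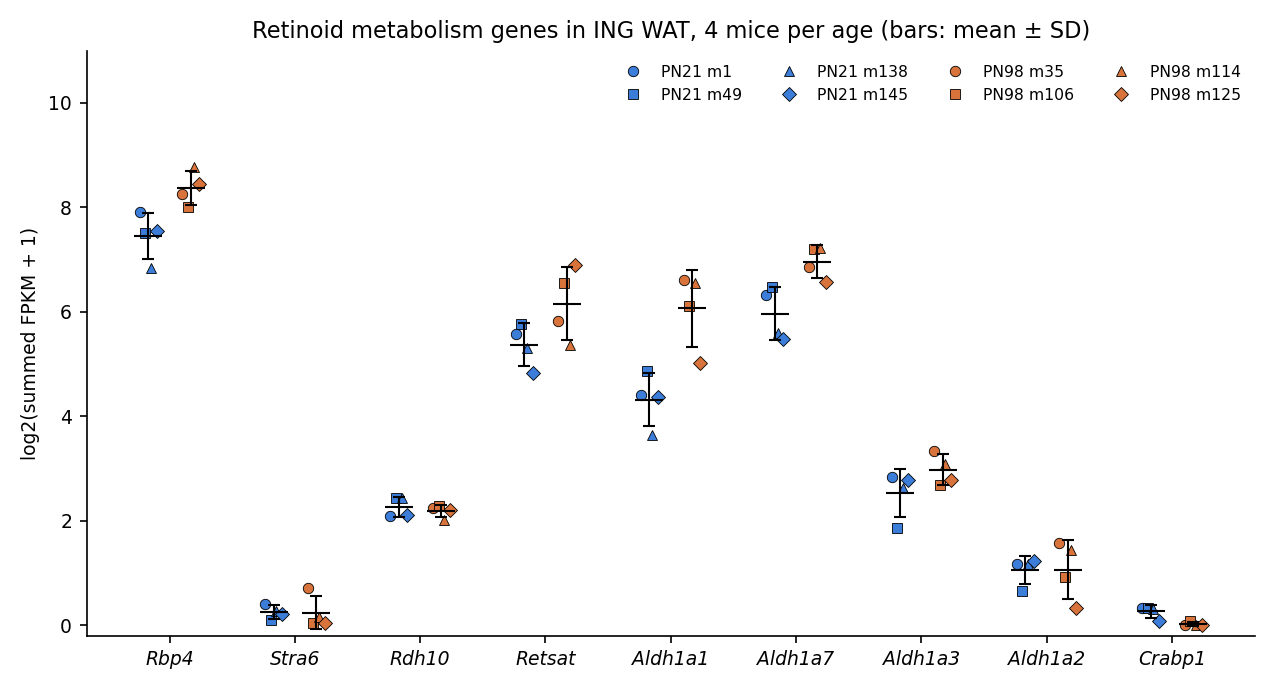
Level of each of the 9 genes by mouse as log2(summed FPKM + 1) (vertical axis), PN21 mice in blue and PN98 mice in orange, with black bars for the mean and SD of 4 mice. The points of the 2 ages are separate for *Rbp4*, *Aldh1a1* and *Aldh1a7* and overlap for the other genes, and *Stra6* and *Crabp1* lie close to 0.

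Markers of several cell types differed between the ages in the same libraries. Of 10 adipocyte markers, all tested, 3 were called, *Adipoq*, *Cidec* and *Lipe*, all higher at PN98 (2.42% of all genes tested were called higher). The defining marker *Adipoq* was at 817 to 1279 FPKM at PN21 and 2512 to 3653 at PN98. The summed level of the list was 18955 to 34642 FPKM at PN21 and 45466 to 64299.9 at PN98, most of it from *Fabp4*, and without *Fabp4* the sums were 8314 to 14391 and 17945 to 26834, without overlap. *Gpd1* of the same list overlapped, with a log2 fold change of −0.94 (limma adjusted p = 0.259). Among the 8 markers of brown adipocytes, 4 had no overlap and lower levels at PN98, *Ucp1*, *Cox7a1*, *Dio2* and *Cpn2*. Among all genes tested, 10.1% were lower without overlap and 3.08% were called lower. The median log2 fold change of the 8 markers was −1.08. *Ucp1*, the uncoupling protein of thermogenic fat, was at 544 to 649.9 FPKM at PN21 and 7.41 to 356 at PN98 (log2 fold change −2.81, adjusted p = 0.144), and *Cpn2* was called lower (−1.79, adjusted p = 0.00504). The summed brown markers overlapped (3055 to 6475 and 374 to 4249), as did *Cidea*, *Cox8b*, *Elovl3* and *Otop1*. All 5 skeletal muscle markers tested were higher at PN98 without overlap, where 6.11% of all genes tested were. Their sums were 6.59 to 239.8 FPKM at PN21 against 291 to 2082 at PN98, and *Actn3* was called.

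Of 7 lymphocyte and lymph node markers, only *Glycam1* was lower without overlap (10.1% of all genes tested were), and it was called (3.08% were called lower). The sums of the list were 890.5 to 1964 FPKM at PN21 and 10.8 to 862 at PN98, but without *Glycam1* they overlapped, at 312 to 767 and 8.97 to 758. The value of 758 belonged to m35, whose *Cd3e* level of 23.2 FPKM lay inside the PN21 range, below the 34.4 of m138 and above the 19.1 of m49, while the other PN98 mice had 0.502 to 3.68. Leaving out m35 raised the genes called from 880 to 3652, or 22.8% of those tested. Of 6 mesothelial markers only *Krt19*, a keratin of many epithelia, was lower without overlap, and without it the sums overlapped (0.716 to 1.11 and 0.561 to 1.12 FPKM). *Msln* was at 0.0202 to 0.206 FPKM in all mice. Of 8 epithelial markers, 4 were tested. Of these 4, 3 were lower without overlap, *Epcam*, *Krt18* and *Krt14* (10.1% of all genes tested were), and *Krt5* overlapped. *Epcam* was called lower (3.08% of all genes tested were), at 1.19 to 2.62 FPKM at PN21 and 0.0421 to 0.964 at PN98. *Krt14* was listed at 0 in all 4 PN98 mice. The sums of the 8 were low and did not overlap, at 2.62 to 28.3 FPKM at PN21 and 0.281 to 1.41 at PN98. Sums of endothelial, macrophage, dendritic and progenitor markers overlapped. Of 8 progenitor markers, all tested, 2 were lower without overlap, *Dlk1* and *Cd34* (10.1% of all genes tested were), and the others overlapped. *Dlk1* was at 7.61 to 25.4 FPKM at PN21 and 0.532 to 1.67 at PN98. It was called lower (log2 fold change −2.91, limma adjusted p = 0.00504), where 3.08% of all genes tested were. In whole tissue, fewer cells of a type and less RNA per cell cannot be told apart, and the part of these cell types in the results on the 9 genes was not tested.

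*Rbp4*, which encodes the carrier of retinol in blood and is made by liver and adipose tissue, had the highest level of the 9 genes. *Rbp4* was read at 239 FPKM in m1, 182 in m49, 113 in m138 and 187 in m145 at PN21, and at 305 in m35, 256 in m106, 437 in m114 and 347 in m125 at PN98. Every PN98 mouse lay above every PN21 mouse, with m106 just above m1. The mean was 180.4 ± 51.7 FPKM (SD, n = 4) in PN21 mice and 336 ± 77.0 (SD, n = 4) in PN98 mice. The log2 fold change of *Rbp4* was 0.92 (SE 0.26, 95% confidence interval 0.31 to 1.52), a 1.89-fold difference that missed the threshold (limma adjusted p = 0.0832). Nearly all of the *Rbp4* level came from the transcript ENSMUST00000112335, at 179.1 ± 51.5 FPKM at PN21 and 334 ± 76.7 at PN98, and the other transcript lay between 0.558 and 2.45 FPKM in the 8 mice. *Rbp4* lies on the minus strand of GRCm38 at chr19:38116629-38125281.

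*Stra6*, the gene of the membrane receptor that takes up retinol from its carrier, was close to 0. Its 14 transcripts summed to 0.329, 0.0707, 0.208 and 0.161 FPKM in mice m1, m49, m138 and m145 of PN21, and to 0.637, 0.0350, 0.123 and 0.0235 in PN98 mice m35, m106, m114 and m125. The highest and the lowest value both belonged to PN98 mice, and 7 of the transcripts were listed at 0 in every mouse. In m35, 0.581 FPKM of the *Stra6* level came from 1 transcript, ENSMUST00000167479. *Stra6* (chr9:58063788-58153996, plus strand) was not tested.

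*Rdh10*, the dehydrogenase known for oxidising retinol to retinal in the embryo, was read at a low and even level. It was 3.27 FPKM in m1, 4.41 in m49, 4.43 in m138 and 3.34 in m145 at PN21, and 3.73 in m35, 3.86 in m106, 3.04 in m114 and 3.60 in m125 at PN98. All 4 PN98 mice lay below the PN21 mice m49 and m138, and only m114 lay below the lowest PN21 mouse. The log2 fold change of *Rdh10* was −0.09 (SE 0.15, 95% confidence interval −0.44 to 0.26, limma adjusted p = 0.727). Its sign depended on the scaling: the value was 0.13 with the libraries scaled to nuclear genes and 0.10 with median of ratios scaling. *Rdh10* lies on the plus strand at chr1:16105774-16133734.

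*Retsat* encodes retinol saturase, an enzyme that saturates a double bond of retinol and is known to be induced during adipocyte differentiation. *Retsat* was read at 46.7 FPKM in m1, 53.6 in m49, 38.7 in m138 and 27.5 in m145 at PN21, and at 55.8 in m35, 92.8 in m106, 40.1 in m114 and 118 in m125 at PN98. In m106 and m125 the level was well above the PN21 range, in m35 just above it, and in m114 inside it. The mean was 41.6 ± 11.2 FPKM (SD, n = 4) in PN21 mice and 76.8 ± 35.5 (SD, n = 4) in PN98 mice. The log2 fold change was 0.79 (SE 0.36, 95% confidence interval −0.04 to 1.62) and did not pass the test (limma adjusted p = 0.197).

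Among the PN98 mice the order of *Retsat* was close to that of the brown adipocyte marker *Cidea* and the reverse of that of the leptin gene *Lep*. *Cidea* was 55.2 FPKM in m35, 721 in m106, 187 in m114 and 1064 in m125. *Lep* was 396, 162, 569 and 102 FPKM in the same mice. The highest *Retsat* and *Cidea* levels and the lowest *Lep* level thus belonged to m125. The adipocyte marker *Pnpla2* also had the order of *Retsat*, at 1316, 1700, 1233 and 2005 FPKM in these mice. Other adipocyte markers did not. *Car3* had the reverse order, at 7374, 5534, 8809 and 5258 FPKM, and *Adipoq* had neither order, at 2696, 2512, 3653 and 2769 FPKM. At PN21 neither *Cidea* nor *Pnpla2* had the order of *Retsat*, and neither *Lep* nor *Car3* had its reverse. In m1, m49, m138 and m145, *Pnpla2* was 1011, 911, 714 and 794 FPKM. *Lep* was 50.6, 73.8, 25.4 and 82.4 FPKM in these mice, and *Car3* 4739, 6191, 2733 and 3445. At this age m145 had the highest *Cidea* level (631 FPKM) and the lowest *Retsat* level (27.5), and m49 the lowest *Cidea* level (405) and the highest *Retsat* level (53.6). These orders within an age were not tested, and neither was the part of diet.

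*Retsat* had 4 transcripts, of which 3 passed the filter for transcripts. ENSMUST00000070597 was 17.5, 20.7, 13.4 and 13.8 FPKM in m1, m49, m138 and m145, and 21.8, 40.9, 21.0 and 48.1 in m35, m106, m114 and m125, so that the ages did not overlap (log2 fold change 0.94, SE 0.33, limma adjusted p = 0.183). ENSMUST00000176364 was 14.7, 22.5, 16.1 and 5.97 FPKM at PN21 and 24.8, 40.5, 13.1 and 41.4 at PN98 in the same orders of mice, which gave a log2 fold change of 1.03 (SE 0.53, adjusted p = 0.284). ENSMUST00000129071 was 13.1, 9.49, 7.23 and 7.06 FPKM at PN21 and 8.52, 9.35, 5.12 and 26.3 at PN98, which gave a log2 fold change of 0.19 (SE 0.50, adjusted p = 0.826). In this last transcript only m125 lay above the PN21 range, and the other PN98 mice lay inside or below it. The table lists the neighbour *Elmod3* together with *Retsat* for the first and second of these transcripts. *Retsat* lies on the plus strand at chr6:72598475-72608425, and the annotation places an antisense gene, *Gm45053*, over it, so that reads of the genes could be shared if strand was not used in counting.

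**Figure D2:**
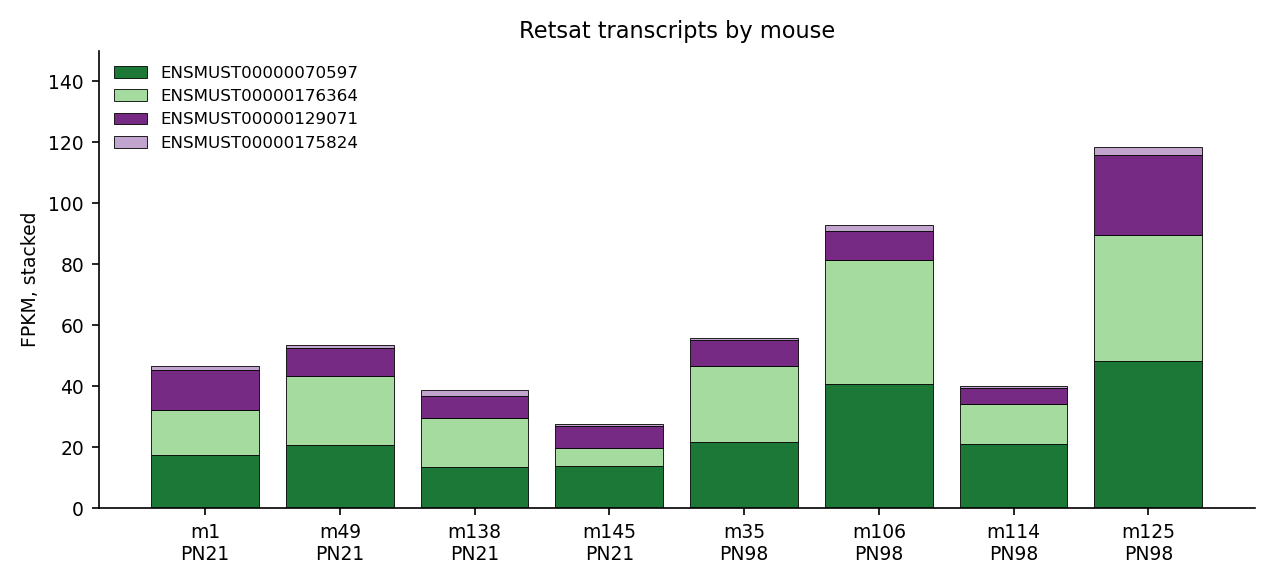
FPKM of the 4 *Retsat* transcripts stacked for each mouse (vertical axis, FPKM; horizontal axis, mouse and age). The stacks of m106 and m125 are the tallest, and ENSMUST00000129071 is largest in m125, where it was 26.3 FPKM.

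*Aldh1a1* and *Aldh1a7* are neighbouring genes of chromosome 19. *Aldh1a1* encodes the main retinal dehydrogenase of adipocytes, and *Aldh1a7* is a close relative of it that is found in rodents. In GRCm38, *Aldh1a1* lies on the plus strand at chr19:20492715-20643465 and *Aldh1a7* on the minus strand at chr19:20692953-20727562. Because a read from 1 gene could be counted on the other where their sequences are the same, their sequences were compared before their levels. The coding sequences have 1503 bases each, of which 1377 (91.6%) are identical and 126 differ, while every other pair of the 4 *Aldh1a* genes shared 68.6% to 69.9%. Among the 1404 windows of 100 bases, the length of a read, the median number of different bases was 8, 167 windows had 2 or fewer and 1 had none. That single identical window, coding bases 757 to 856, spans exons 8 and 9 of both transcripts, from chr19:20629063-20630671 in *Aldh1a1* and chr19:20708329-20709491 in *Aldh1a7*, and is shown because a read of it is the same in both genes.
Aldh1a1 and Aldh1a7: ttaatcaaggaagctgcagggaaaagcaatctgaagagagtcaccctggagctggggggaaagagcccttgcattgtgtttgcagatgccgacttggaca

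The window with the most differences, 21 in 100 bases, lies close to it, at coding bases 879 to 978 in exon 9 (chr19:20630694-20630793 in *Aldh1a1* and chr19:20708207-20708306 in *Aldh1a7*), and is shown because reads from it can be told apart. Capitals mark the bases that differ between the genes.
Aldh1a1: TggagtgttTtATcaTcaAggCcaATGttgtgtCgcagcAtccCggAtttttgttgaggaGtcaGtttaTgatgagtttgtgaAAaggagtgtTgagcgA
Aldh1a7: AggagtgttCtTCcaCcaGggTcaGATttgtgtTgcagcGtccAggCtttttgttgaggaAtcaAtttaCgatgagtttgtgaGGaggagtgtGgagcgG

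The promoters of this pair also share sequence. RefSeq promoters (GRCm38.p6, 250 bases upstream of the start) were found for 7 of the 9 genes, the exceptions being *Aldh1a3* and *Rdh10*. Those of *Aldh1a1* (chr19:20601718-20601967, plus strand) and *Aldh1a7* (chr19:20727557-20727806, minus strand) share an unbroken stretch of 65 bases, in capitals here, which ends 29 bases before the start in both and occurs in these 2 of 32851 promoters.
Aldh1a1: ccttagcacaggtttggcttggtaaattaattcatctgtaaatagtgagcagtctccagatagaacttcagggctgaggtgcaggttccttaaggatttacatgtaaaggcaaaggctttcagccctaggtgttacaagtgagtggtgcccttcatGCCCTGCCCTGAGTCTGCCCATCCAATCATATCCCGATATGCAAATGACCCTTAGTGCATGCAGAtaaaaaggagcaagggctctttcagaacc
Aldh1a7: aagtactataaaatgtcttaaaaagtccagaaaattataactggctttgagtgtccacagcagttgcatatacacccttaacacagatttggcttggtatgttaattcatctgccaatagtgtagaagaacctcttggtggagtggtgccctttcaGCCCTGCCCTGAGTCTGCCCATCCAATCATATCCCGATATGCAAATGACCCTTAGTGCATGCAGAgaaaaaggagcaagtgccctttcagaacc

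Within the shared stretch lies the pentamer CCAAT, which on either strand was found in 4 of the 7 promoters (*Aldh1a1*, *Aldh1a7*, *Aldh1a2* and *Stra6*) and in 33.8% of all promoters of this length. The letters AGGTCA, the half-site to which retinoid receptors are known to bind, were in 0 of the 7 promoters on either strand and in 14.0% of all. A match describes letters in this window and not a bound site.

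*Aldh1a1* was read at 20.4 FPKM in m1, 28.0 in m49, 11.4 in m138 and 19.7 in m145 at PN21, and at 96.4 in m35, 68.4 in m106, 92.9 in m114 and 31.4 in m125 at PN98. Of the PN98 mice, m125 stood just above the highest PN21 mouse and the other 3 stood well above it. The mean level was 19.9 ± 6.79 FPKM (SD, n = 4) in PN21 mice and 72.3 ± 30.0 (SD, n = 4) in PN98 mice. *Aldh1a1* rose between the ages with a log2 fold change of 1.75 (SE 0.40, 95% confidence interval 0.84 to 2.67), or 3.37-fold (limma adjusted p = 0.0442). The call stood close to the threshold. Leaving out any 1 of m1, m49, m138, m145, m106 and m114 gave an adjusted p of 0.0719 to 0.123, whereas it was 0.0376 without m35 and 0.0199 without m125. The log2 fold change stayed between 1.52 and 2.11 in these 8 fits.

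*Aldh1a7* was the more abundant of the pair in every mouse. It was read at 79.3 FPKM in m1, 88.0 in m49, 47.3 in m138 and 43.5 in m145 at PN21, and at 115 in m35, 147 in m106, 149 in m114 and 94.0 in m125 at PN98. All PN98 mice lay above all PN21 mice, with m125 and m49 next to each other. The mean was 64.5 ± 22.4 FPKM (SD, n = 4) in PN21 mice and 126 ± 26.5 (SD, n = 4) in PN98 mice, a log2 fold change of 0.996 (SE 0.28, 95% confidence interval 0.35 to 1.64) that missed the threshold (limma adjusted p = 0.0787).

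The ratio of *Aldh1a1* to *Aldh1a7* does not depend on the scaling of the libraries. It was 0.257 in m1, 0.318 in m49, 0.242 in m138 and 0.452 in m145 at PN21, and 0.841 in m35, 0.466 in m106, 0.625 in m114 and 0.334 in m125 at PN98. The PN98 mouse m125 fell inside the PN21 range and the other PN98 mice lay above it. The mean log2 ratio was −1.70 ± 0.41 (SD, n = 4) in PN21 mice and −0.90 ± 0.57 (SD, n = 4) in PN98 mice, and the difference of 0.80 had p = 0.0571 by exact permutation of the 8 mice (two-sided, 70 splits), which cannot give a p below 0.0286. A larger change of *Aldh1a1* than of *Aldh1a7* was therefore not shown.

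**Figure D3:**
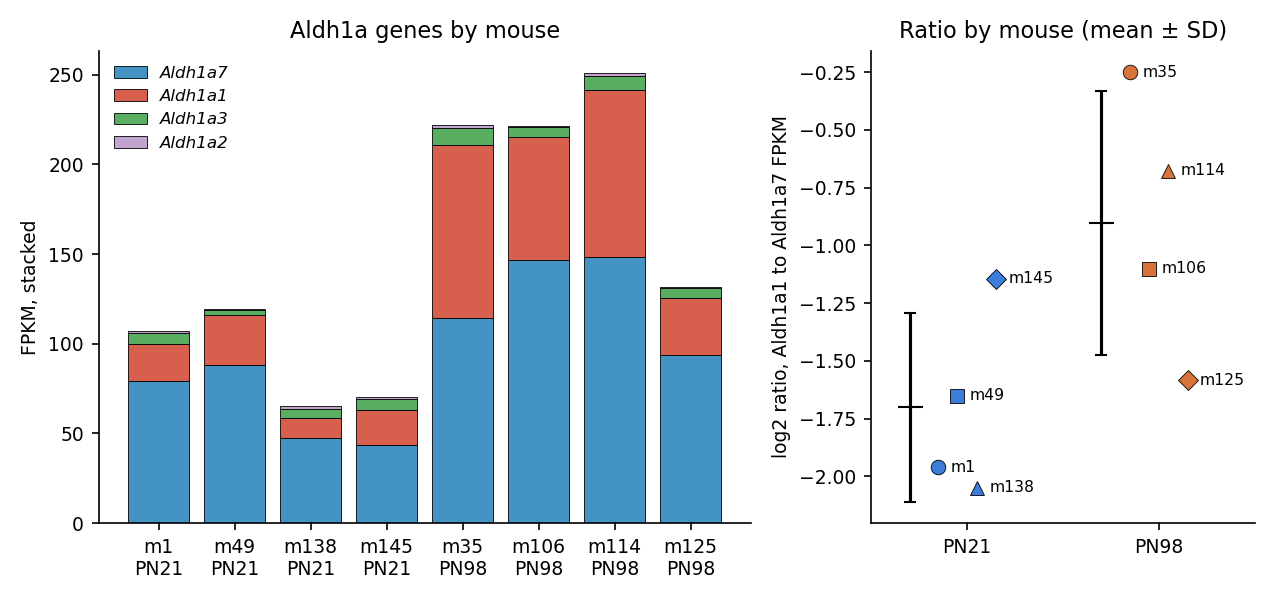
Left, FPKM of the 4 *Aldh1a* genes stacked for each mouse; right, log2 ratio of *Aldh1a1* to *Aldh1a7* FPKM by mouse, with the mean and SD of each age in black. The stacks of m35, m106 and m114 came to 222, 222 and 251 FPKM against at most 119 at PN21, and in the ratio m125 lies among the PN21 mice.

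*Aldh1a3*, a retinal dehydrogenase known from the developing eye and nose, was far below this pair. It was read at 6.20, 2.64, 5.16 and 5.91 FPKM in m1, m49, m138 and m145 of PN21, and at 9.07, 5.43, 7.55 and 5.90 in PN98 mice m35, m106, m114 and m125. The PN98 mice m35 and m114 were above the PN21 range and the other 2 were inside it. The log2 fold change of *Aldh1a3* was 0.44 (SE 0.26, 95% confidence interval −0.15 to 1.04, limma adjusted p = 0.287). Its transcript ENSMUST00000015278 gave a log2 fold change of 0.59 (SE 0.28, adjusted p = 0.254). *Aldh1a3* lies on the minus strand at chr7:66390890-66427517.

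*Aldh1a2*, the retinal dehydrogenase of the embryo and of mesothelium, was near the limit of the filter. Levels were 1.25, 0.573, 1.24 and 1.34 FPKM in m1, m49, m138 and m145 at PN21, and 1.97, 0.900, 1.71 and 0.259 in m35, m106, m114 and m125 at PN98. Both the highest and the lowest level were found at PN98, and m49 stood below the other PN21 mice. The log2 fold change of *Aldh1a2* was 0.01 (SE 0.29, 95% confidence interval −0.65 to 0.68, limma adjusted p = 0.981). Its sign turned to −0.10 with a pseudocount of 0.1. *Aldh1a2* lies on the plus strand at chr9:71215789-71296243.

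The 4 *Aldh1a* genes together came to 107 FPKM in m1, 119 in m49, 65.1 in m138 and 70.4 in m145 at PN21, and to 222 in m35, 222 in m106, 251 in m114 and 132 in m125 at PN98. The sums did not overlap, and how far they stand for retinal oxidation was not tested. *Aldh1a1* made up 17.5% to 27.9% of the sum at PN21 and 23.8% to 43.4% at PN98, and *Aldh1a7* 61.8% to 74.0% and 51.6% to 71.5%. These shares rest on how the authors split the reads of *Aldh1a1* and *Aldh1a7*, whose coding sequences are 91.6% identical. Of their 1404 coding windows of 100 bases, 1 had no difference, and the median was 8 different bases. Of the 1954 stretches of 100 bases in the *Aldh1a1* transcript, 1 was also found in *Aldh1a7*. The effect of the split on the shares was not tested.

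*Crabp1*, which encodes a binding protein of retinoic acid in the cytoplasm, had the lowest mean over the 8 mice and was not tested, although at PN21 alone its mean of 0.204 FPKM was above the 0.192 of *Stra6*. It was read at 0.262, 0.253, 0.244 and 0.0575 FPKM in PN21 mice m1, m49, m138 and m145. At PN98 it was listed at 0 in m35, m114 and m125 and at 0.0590 in m106. The PN98 level in m106 was just above that of the PN21 mouse m145, so the ages overlapped. *Crabp1* lies on the plus strand at chr9:54764748-54773110.

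By mean level over the 8 mice, the genes stood in the order *Rbp4* (258 FPKM), *Aldh1a7* (95.3), *Retsat* (59.2), *Aldh1a1* (46.1), *Aldh1a3* (5.98), *Rdh10* (3.71), *Aldh1a2* (1.15), *Stra6* (0.198) and *Crabp1* (0.109). FPKM is scaled by length, so these levels can be set side by side. The steps from *Rbp4* to *Aldh1a7*, from *Aldh1a1* to *Aldh1a3*, from *Rdh10* to *Aldh1a2* and from *Aldh1a2* to *Stra6* were seen in 8 of 8 mice. *Aldh1a7* exceeded *Retsat* in 7 mice, with m125 as the exception, and *Aldh1a3* exceeded *Rdh10* in 7, with m49 as the exception. *Retsat* exceeded *Aldh1a1* in 6 mice and *Stra6* exceeded *Crabp1* in 5, so that these neighbours did not keep their order across mice.

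At the level of transcripts, 8 of the 31 transcripts of the 9 genes, from 6 genes, were read in every mouse and had a mean FPKM above 2 at 1 age or both. Of these, 4 had an unadjusted p under 0.05 in limma, where 21.8% of the 23167 transcripts tested did, and 0 had an adjusted p under 0.05, where 1.36% did. The 4 were the main transcripts of *Aldh1a1* (log2 fold change 1.81, SE 0.44, adjusted p = 0.0982), *Aldh1a7* (1.01, SE 0.30, 0.141) and *Rbp4* (0.92, SE 0.28, 0.147), and ENSMUST00000070597 of *Retsat*. For *Rdh10*, ENSMUST00000027053 gave −0.11 (SE 0.17, adjusted p = 0.683).

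How the libraries are scaled moves every fold change, since the median log2 fold change of all genes tested was −0.21 with the FPKM as deposited, 0.02 with every library brought to an equal sum over its nuclear genes, and −0.01 with median of ratios scaling. Of the genes called, 56.0% were lower at PN98 as deposited, 31.6% with nuclear scaling (5.35% of the genes tested were called) and 37.5% with median of ratios scaling (7.85% called). Relative to the median of all genes, *Aldh1a1* was higher by 1.97, 2.00 and 1.99 under these scalings, *Aldh1a7* by 1.21, 1.25 and 1.24, *Rbp4* by 1.13, 1.17 and 1.16, and *Retsat* by 0.999, 1.03 and 1.03. *Rbp4* passed the test with nuclear scaling (log2 fold change 1.19, limma adjusted p = 0.0470) and *Aldh1a7* with median of ratios scaling (1.22, adjusted p = 0.0399), while *Aldh1a1* passed in both (adjusted p = 0.0209 and 0.0164). *Rdh10* turned from −0.09 to 0.13 and 0.10, and stood 0.13, 0.11 and 0.11 above the median.

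**Figure D4:**
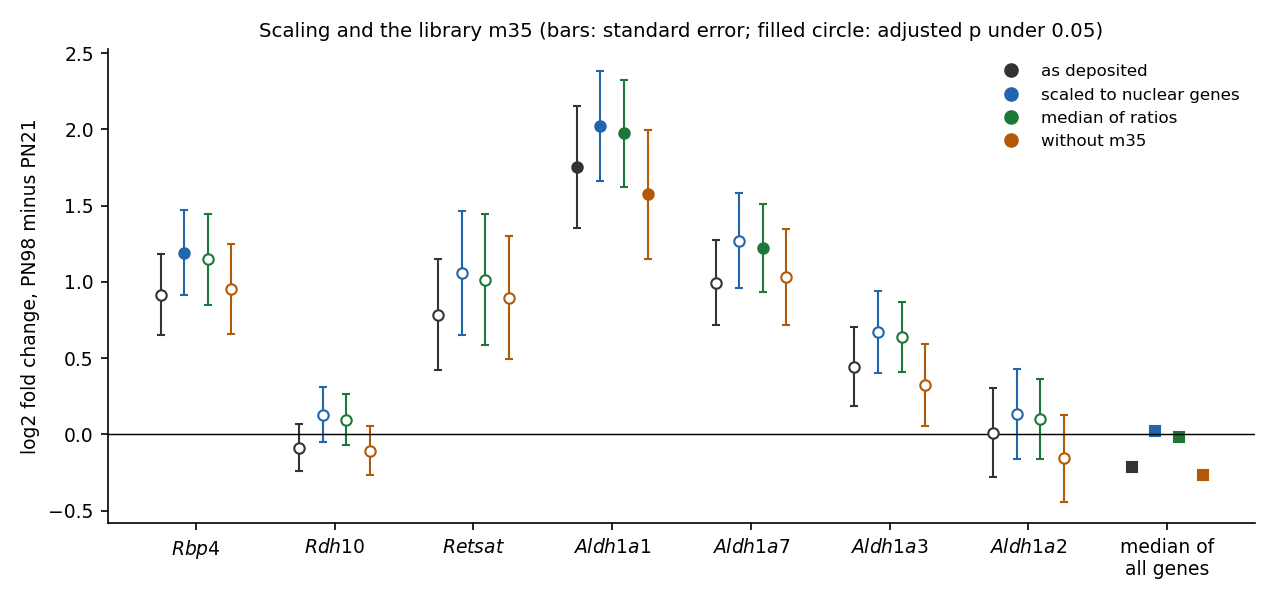
Log2 fold change, PN98 minus PN21 (vertical axis), of the 7 genes tested under 3 scalings and without PN98 mouse m35, with bars for the standard error and filled points for an adjusted p under 0.05 (limma). Squares give the median of all genes tested, −0.21 as deposited, −0.27 without m35 and near 0 with the other 2 scalings, and *Rdh10* crosses 0 with it.

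The other genes of retinoid handling were read from 6 lists holding 63 genes, of which 62 are in the table and 42 were tested. Of these 42, 5 rose and 0 fell, against 2.42% and 3.08% of all genes, and 10 were higher and 4 lower without overlap, against 6.11% and 10.1%. At an unadjusted p under 0.05 (27.5% of all genes tested), 13 were higher and 5 lower. Their median log2 fold change was 0.11. The count depended on single mice: 2 or 3 genes were called on leaving out any 1 of m1, m49, m138, m145, m106 and m114, and 13 without m35, of which 9 were higher and 4 lower. Of the 5, 3 are enzymes that hydrolyse stored lipid esters, and the others are a lipid transporter and an alcohol dehydrogenase. *Lipe* and *Fabp4* of these lists were also among the adipocyte markers above, and *Ucp1* among the brown adipocyte markers.

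Among 10 genes of retinol transport and cell binding, 7 were tested and 1 rose, and the median was −0.52. *Cd36*, a fatty acid transporter, was 389, 424, 352 and 349 FPKM at PN21 and 823, 1001, 922 and 588 at PN98, without overlap (log2 fold change 1.11, SE 0.20, limma adjusted p = 0.0200). The call held in 3 of the 8 fits that left out 1 mouse (highest adjusted p = 0.0692). *Fabp4*, the fatty acid binding protein of adipocytes, had the highest level of the lists, with means of 17129 ± 4526 and 32724 ± 4118 FPKM (SD, n = 4), and missed the threshold (0.97, SE 0.24, adjusted p = 0.0523).

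Among 9 genes of retinyl ester synthesis, ester hydrolysis and carotene cleavage, 6 were tested, 3 rose and the median was 0.93. *Lipe*, the hormone-sensitive lipase that also hydrolyses retinyl esters in fat, was 487, 349, 326 and 341 FPKM at PN21 and 524, 748, 856 and 872 at PN98 (log2 fold change 0.99, SE 0.22, limma adjusted p = 0.0407). This call held in only 1 of the 8 fits that left out 1 mouse, that without m35 (adjusted p = 0.0108), and the others gave up to 0.117. *Ces1d*, a carboxylesterase, was 336, 377, 294 and 437 FPKM at PN21 and 818, 1159, 1032 and 1223 at PN98 (1.55, SE 0.19, adjusted p = 0.00618). Its neighbour *Ces1f* was 40.6, 42.1, 27.7 and 38.8 FPKM at PN21 and 86.0, 133, 111 and 137.8 at PN98 (1.62, SE 0.21, adjusted p = 0.00700). In all 3 enzymes every PN98 mouse lay above every PN21 mouse. The calls of *Ces1d* and *Ces1f* held in 8 of 8 such fits. *Ces1d* and *Ces1f* are paralogs, and the split of reads between them is uncertain. *Lpl*, the lipoprotein lipase, had means of 1396 ± 334 and 2535 ± 537 FPKM (0.87, SE 0.23, adjusted p = 0.0690).

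Among 20 retinol and retinal oxidoreductases, 11 were tested and 1 rose, with a median of 0.04. That gene was *Adh1*, an alcohol dehydrogenase that can oxidise retinol, at 108, 101, 79.8 and 109 FPKM at PN21 and 163, 173, 188 and 151 at PN98 (log2 fold change 0.76, SE 0.16, limma adjusted p = 0.0342). Its call held in 2 of the 8 fits, those without m35 and m125 (highest adjusted p of the others 0.104). *Dhrs3*, which reduces retinal to retinol, had means of 62.2 ± 14.2 and 101 ± 22.4 FPKM (0.69, SE 0.22, adjusted p = 0.103).

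Of 4 cytochrome genes of retinoic acid breakdown, only *Cyp26b1* was tested. Its level was 1.39 ± 0.412 FPKM at PN21 and 1.30 ± 0.583 at PN98 (SD, n = 4), and the log2 fold change was −0.08 (SE 0.24, 95% confidence interval −0.62 to 0.46, limma adjusted p = 0.849) that turned to 0.056 with nuclear scaling and 0.034 with median of ratios scaling. *Cyp2s1* was 0.599 ± 0.120 and 0.363 ± 0.465 FPKM and was not tested.

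All 10 retinoid receptors and partners were tested and 0 were called by limma, with 2 at an unadjusted p under 0.05 and a median of −0.21. The corepressor gene *Ncor1* (178 ± 71.2 and 153 ± 23.5 FPKM) and *Pparg*, the receptor of adipocyte differentiation and partner of the retinoid X receptors (108 ± 16.7 and 95.9 ± 43.2), had the highest levels, with log2 fold changes of −0.16 (limma adjusted p = 0.709) and −0.26 (adjusted p = 0.595). *Ncor1* turned to 0.12 with nuclear scaling and 0.073 with median of ratios scaling, and *Pparg* to 0.012 with nuclear scaling. Of 16 genes known as targets of retinoic acid, 6 of which are in the other lists too, 11 were tested and 0 were called by limma, with 6 at an unadjusted p under 0.05 and a median of 0.55. The gluconeogenic enzyme gene *Pck1* (568 ± 272 and 1855 ± 809 FPKM; 1.75, SE 0.47, adjusted p = 0.0703) and the chemerin gene *Rarres2* (339 ± 153 and 692 ± 356; 0.99, SE 0.43, adjusted p = 0.178) had the highest levels of that list.

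**Figure D5:**
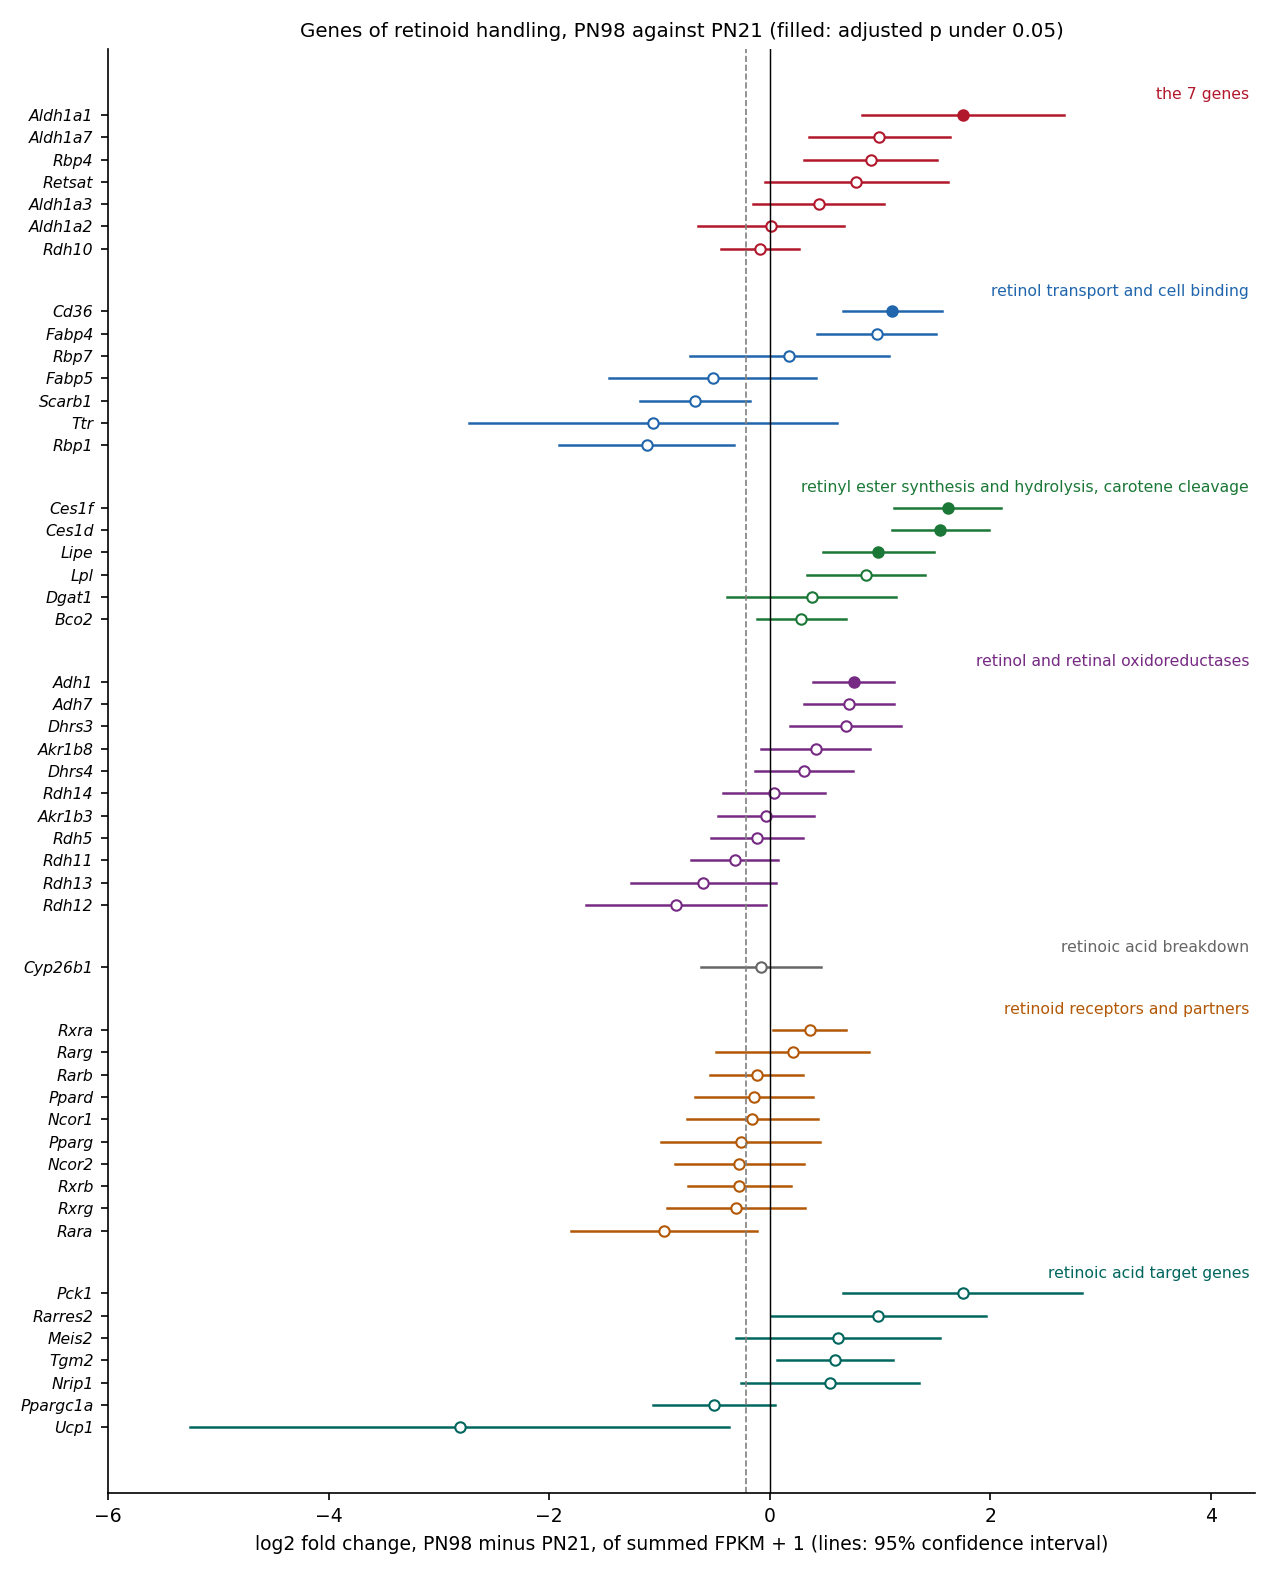
Log2 fold change, PN98 minus PN21 (horizontal axis, on the log2(FPKM + 1) scale), of the 7 genes and the other retinoid handling genes tested, grouped by list (a gene of several lists is drawn once), with lines for the 95% confidence interval and filled points for an adjusted p under 0.05 (limma). The filled points, *Aldh1a1*, *Cd36*, *Ces1f*, *Ces1d*, *Lipe* and *Adh1*, all lie to the right of 0, and the dashed line marks the median of all genes at −0.21.

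The genes whose log2(FPKM + 1) followed each gene most closely over the 8 mice were picked by Pearson correlation among all genes tested, which are descriptions over mice of 2 ages. For *Aldh1a1* they were *Ifrd1* (r = 0.976), *Cavin2* (r = 0.975) and *Glb1l2* (r = 0.972), and with each age centred on its mean r was 0.917, 0.946 and 0.898. For *Aldh1a7* they were *Hoxc4* (r = 0.980), *Mmd* (r = 0.976) and *Klhl33* (r = 0.974), for *Rbp4* *BC029722* (r = 0.974), *Hgsnat* (r = 0.968) and *Sdsl* (r = 0.964), and for *Retsat* *Glns-ps1* (r = 0.968), *Ccni* (r = 0.966) and *AA986860* (r = 0.963). For *Aldh1a3* they were *Palm* (r = 0.982), *1700047I17Rik2* (r = 0.957) and *Fam20a* (r = 0.943), for *Aldh1a2* *Cntln* (r = 0.993), *Ear2* (r = 0.990) and *Fbln2* (r = 0.988), and for *Rdh10* *Mir8099-2* (r = 0.934), *Pptc7* (r = 0.933) and *Mir8099-1* (r = 0.932). With 15991 genes to pick from and 8 mice, such values can be high by selection alone. The values centred by age come from the same mice that picked the genes and are no separate check.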

How the data were processed

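Poly(A)+ RNA of whole ING WAT from 8 mice was sequenced in paired-end reads of 100 bases. Per the labels and the submitters' processing notes, base calling used CASAVA 1.8.2, reads were mapped to mm10 (GRCm38) with STAR 2.3.0, and the authors quantified Ensembl transcripts with Cufflinks 2.1.1, depositing 1 FPKM value per transcript and mouse. Whether counting used strand is not given in the sources used here. Values of the deposited table had lost their decimal mark in 40380 of 91969 transcripts, and the marks were restored from the authors' deposited average, standard deviation and score: 38647 had 1 reading with 6 significant digits, 1544 had 1 reading with values at 0 or above, 11 were taken from the comparison table and 178 were left out. All 5018 restored transcripts that the comparison table also lists agreed in all 8 mice (relative tolerance 1e-06). The authors' columns of fold changes and p-values were not used.

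FPKM was summed per gene after assigning 88563 transcripts by GENCODE vM21 and 1925 by their only listed gene, and 1303 without a single gene entered the transcript fit only. log2(FPKM + 1) of the deposited values was compared with limma 3.58.1 in R 4.3.3 for genes averaging 1 FPKM or more, and transcripts were compared on log2(FPKM) without a pseudocount. Calls are Benjamini-Hochberg adjusted p under 0.05. The fold changes understate the change of low genes. The ratio test went through all 70 splits of the mice in Python 3.11.15 with numpy 2.4.6. The limma step was tested on simulated data.

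The 9 genes, the lists and the tests were chosen with earlier results of these data known. Genes named are the 9, list genes that were called, the 2 of highest mean level per list, the 3 most correlated genes per tested gene, and markers. *Cidea*, *Lep*, *Pnpla2*, *Car3* and *Adipoq* were set beside *Retsat* after their values were seen. *Bcmo1*, an older name of *Bco1*, was not analysed here. The result of 1 marker list is not reported here. Groups follow the labelled age. The replicates are separate mice by their titles; litters are not given, so p-values measure the spread between these mice. The files give no read counts, so depth is unknown and counting error could not be given. Alternatives covered the pseudocount, the filter, scaling, weights, the transcripts used and each mouse left out.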

Additional observations from a re-analysis of the deposited data

Results flagged for a closer look

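Of 20 groups of 4 mice examined on the log2(FPKM + 1) scale, 3 held a mouse whose gap to the nearest other mouse, as a share of the range of the group, exceeded Dixon's 95% critical value. Chance gives about 1 in 20 such groups. In *Aldh1a2* at PN21 the mouse was m49, at 0.573 FPKM against 1.24 to 1.34 in the others, with a gap of 0.900 of the range. In *Crabp1* at PN21 it was m145, at 0.0575 FPKM against 0.244 to 0.262, with a gap of 0.915. In *Crabp1* at PN98 it was m106, at 0.0590 FPKM while the other 3 mice were listed at 0, which makes the gap 1.0 by construction.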

How the results depend on the processing

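No paired analysis was possible because the replicate numbers were given in accession order and mark no shared litter or day. The count of genes called, 880 as reported, was 572 of 10965 with a mean FPKM of at least 5, 499 of 9641 with rows of 1 gene symbol, 4722 with mice weighted by limma's arrayWeights, and 199 to 3652 on leaving out 1 mouse, the highest without m35 and the lowest without m106. Of the 9 retinoid genes, 1 as reported, 0 were called with a pseudocount of 0.1, with no filter on low values or with only the transcript of highest mean level, 2 with scaling to nuclear genes, with median of ratios scaling or with arrayWeights, and 0 to 1 on leaving out 1 mouse. *Aldh1a1* had an adjusted p of 0.0547, 0.0745 and 0.0513 in the 3 settings without a call, and its log2 fold change was 1.71 to 2.02 over all settings with 8 mice. With arrayWeights *Aldh1a7* was called (0.99, adjusted p = 0.0199). Of the other retinoid handling genes, 5 as reported, 8 were called with nuclear scaling, 10 with median of ratios scaling, 16 with arrayWeights, 3 with rows of 1 gene symbol and 2 to 13 on leaving out 1 mouse. *Lipe* lost its call with a pseudocount of 0.1, with no filter and with a mean trend in limma (adjusted p = 0.0511, 0.0505 and 0.0510), and *Adh1* with the transcript of highest mean level (0.0681). On leaving out 1 mouse, *Lipe* kept its call in 1 of 8 fits, *Adh1* in 2, *Cd36* in 3, and *Ces1d* and *Ces1f* in 8 each. Transcripts called, 314 as reported, were 108 with a mean above 2 at both ages, 709 with a pseudocount of 1, 544 with median of ratios scaling and 48 to 1763 on leaving out 1 mouse. The difference in the log2 ratio of *Aldh1a1* to *Aldh1a7* was 0.76 with a pseudocount of 1 and 0.58 to 1.03 on leaving out 1 mouse. *Retsat* had a log2 fold change of 0.18 with rows of 1 gene symbol (adjusted p = 0.795).

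Signs turned for values near 0. *Aldh1a2* was −0.10 with a pseudocount of 0.1, −0.051 with arrayWeights and −0.16 to 0.26 on leaving out 1 mouse, below 0 without m35, m49 or m114. *Rdh10* was 0.13 with nuclear scaling and 0.10 with median of ratios scaling, and its transcript 0.16 and 0.12. *Cyp26b1* was 0.056 and 0.034 under these scalings and −0.20 to 0.12 on leaving out 1 mouse, above 0 without m125 or m138. *Ncor1* was 0.12 and 0.073 under these scalings and −0.28 to 0.090 on leaving out 1 mouse, above 0 without m145. *Pparg* was 0.012 with nuclear scaling, and the *Retsat* transcript ENSMUST00000129071 was −0.27 to 0.52 on leaving out 1 mouse, below 0 without m125. The cause of these changes was not tested. With the depth unknown, *Stra6*, *Crabp1* and *Aldh1a2* can be read only as low levels.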
